A study of Mus musculus with 14 samples.

Results

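In transformed pro-B cells carrying wild-type (wt) EBF1, 72.0% of the EBF1 peaks called also carried a peak of the chromatin remodeller Brg1, and 18.0% of the Brg1 peaks carried one of EBF1. Both shares turned on how deep the lists reach. With both lists cut at a −log10 q of at least 20, they were 28.0% and 56.9%. That cut left 3597 EBF1 peaks and only 1725 Brg1 peaks to overlap them. With the full Brg1 list, 944 of the 1000 EBF1 peaks of highest fold had Brg1. Both proteins were mapped by ChIP-seq, the sequencing of DNA recovered with an antibody, and the deposited peak lists of the pair were laid over each other. An EBF1 peak counted as co-occupied when it shared at least 1 bp with a Brg1 peak, and a Brg1 peak likewise. The pair of lists held 30648 of the 196179 peaks in the 9 lists of the series, 6155 of them EBF1 peaks and 24493 Brg1 peaks.

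Abelson murine leukemia virus (A-MuLV) had transformed these C57BL/6 cells, which derive from EBF1 fl/fl fetal liver, and their own EBF1 was replaced by wt EBF1 from the retroviral construct pMys_EBF1_wt_IRES_GFP. A second A-MuLV population carried EBF1 dC, which lacks the C-terminal domain, and was profiled for the same proteins. Brg1 was also mapped in EBF1 -/- c-kit+ fetal liver progenitors of C57BL/6 mice, from embryonic days 16 to 18. These progenitors were given EBF1 wt, dC, dPLD, F-GATA3 or an empty vector. In dPLD residues 480 to 520 are deleted, and in F-GATA3 the C-terminal domain is exchanged for the TA1 domain of GATA3. Every group had 1 library, so no comparison has a replicate check and none was tested. The cells are a virus-transformed line with EBF1 supplied by a vector, and the labels do not say whether a population is 1 clone.

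EBF1 is a transcription factor required for the B-cell lineage. It binds DNA as a dimer at a palindromic motif and switches on genes of the pre-B-cell receptor and other B-cell proteins. Brg1, encoded by Smarca4, is a catalytic ATPase of the BAF complexes, which use ATP to slide or evict nucleosomes at promoters and enhancers. BAF complexes have little sequence preference of their own and are brought to sites by DNA-binding factors.

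The antibodies and crosslinking differed between the pair. Brg1 chromatin was fixed with EGS, a longer protein crosslinker, and 1% formaldehyde for 15 min, and EBF1 chromatin with 1% formaldehyde alone for 10 min. The Brg1 list also reached weaker peaks, down to a −log10 q of 1.37, against 10.0 for the EBF1 list. Fetal liver chromatin was fixed with 2% formaldehyde for 15 min, so it differed from A-MuLV chromatin in fixation too. The fetal liver wt Brg1 peaks were wider, with a median of 1103 bp against 381 bp (wt) and 348 bp (dC) in A-MuLV cells. That fetal liver list began at a −log10 q of 10.0, and the A-MuLV dC Brg1 list at 1.33. What part peak width and cutoff had in shares by overlap was not tested. The lists give no read depth, and where no peak was called the protein may still have been bound. A peak sums over many cells, so more cells bound and longer binding per cell cannot be told apart. Parentheses after shares hold exact Clopper-Pearson 95% intervals, which cover counting error only. Fold is the authors' enrichment of a peak over its background and serves only to describe and rank peaks within 1 list.

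The DNA under EBF1 summits can be shown at promoters, taken from RefSeq (GRCm38.p6) as 300 bases, 250 before and 50 after a transcription start. The first 3 windows belong to B-lineage genes with both proteins, and the last 2 had EBF1 without Brg1 at the highest folds of any promoter of that kind. The last 2 were chosen after their values had been seen, since no B-lineage promoter had EBF1 alone. Capitals mark the letters CCCNNGGG, the core of the EBF motif, searched on both strands.
Igll1: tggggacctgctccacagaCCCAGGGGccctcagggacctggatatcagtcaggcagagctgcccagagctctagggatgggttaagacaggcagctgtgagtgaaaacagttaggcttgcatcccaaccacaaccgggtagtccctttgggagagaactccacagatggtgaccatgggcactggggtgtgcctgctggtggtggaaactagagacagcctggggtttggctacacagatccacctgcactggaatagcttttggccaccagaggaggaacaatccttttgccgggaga
Cd79a: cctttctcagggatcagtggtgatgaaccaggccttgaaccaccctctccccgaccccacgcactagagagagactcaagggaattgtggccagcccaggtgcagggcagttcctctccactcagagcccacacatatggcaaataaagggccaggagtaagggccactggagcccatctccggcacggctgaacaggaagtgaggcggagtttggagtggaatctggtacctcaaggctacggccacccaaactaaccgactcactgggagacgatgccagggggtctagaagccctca
Cd22: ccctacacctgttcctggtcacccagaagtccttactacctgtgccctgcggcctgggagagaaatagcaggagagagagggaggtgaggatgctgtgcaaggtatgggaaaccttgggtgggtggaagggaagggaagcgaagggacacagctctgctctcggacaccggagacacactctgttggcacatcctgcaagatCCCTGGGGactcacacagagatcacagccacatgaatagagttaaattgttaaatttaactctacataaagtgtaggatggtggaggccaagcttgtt
Kcnk13: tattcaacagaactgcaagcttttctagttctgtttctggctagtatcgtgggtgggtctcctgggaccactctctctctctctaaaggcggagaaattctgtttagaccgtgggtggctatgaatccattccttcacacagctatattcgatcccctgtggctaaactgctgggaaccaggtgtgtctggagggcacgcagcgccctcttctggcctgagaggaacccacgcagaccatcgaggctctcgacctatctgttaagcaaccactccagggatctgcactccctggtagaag
Rnpep: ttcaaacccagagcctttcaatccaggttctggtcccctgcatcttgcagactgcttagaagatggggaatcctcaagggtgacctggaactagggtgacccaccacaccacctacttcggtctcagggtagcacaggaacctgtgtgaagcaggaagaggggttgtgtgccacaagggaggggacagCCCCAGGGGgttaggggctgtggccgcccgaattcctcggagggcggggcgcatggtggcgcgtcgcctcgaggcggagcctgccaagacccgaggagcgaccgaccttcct

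Igll1 encodes a part of the surrogate light chain, and its window is chr16:16863936-16864235 on the minus strand. Its EBF1 summit (fold 36.5) lay 219 bp before the start and 8.5 bp from the centre of the match, with a Brg1 summit (36.1) 36 bp away. Cd79a, a signalling chain of the B-cell receptor, has the plus-strand window chr7:24897247-24897546. There the EBF1 summit (18.0) lay 160 bp before the start and 2 bp from the Brg1 summit (10.4), and the letters searched were not in the window. Cd22, an inhibitory receptor of B cells, has the minus-strand window chr7:30878979-30879278. Its EBF1 summit (17.5) lay 2.5 bp from the centre of a match and 59 bp from the Brg1 summit (16.6).

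The promoters without Brg1 had EBF1 folds close to those of Cd79a and Cd22 and below that of Igll1. Kcnk13, which encodes a potassium channel, has the plus-strand window chr12:99964249-99964548, where the EBF1 summit (17.5) had its nearest Brg1 summit 79569 bp away. Rnpep, which encodes an aminopeptidase, has the minus-strand window chr1:135284035-135284334, and its EBF1 summit (17.2) lay 0.5 bp from the centre of a match. A Brg1 summit lay 432 bp from it, outside any overlap. The promoter of Plcg2, also named by the rule, is not printed because its EBF1 summit (15.2) lay 309 bp downstream of the start, outside the window.

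Over all promoters, the motif went with EBF1 summits whether or not Brg1 was there. CCCNNGGG was in 187 of 311 windows with the summit of a co-occupied EBF1 peak (60.1%, 54.5-65.6%) and in 25 of 37 windows with the summit of an EBF1 peak without Brg1 (67.6%, 50.2-82.0%). It was in 18.7% (17.5-19.9%) of the 4032 windows with the summit of a Brg1 peak without EBF1, and in 13.7% of all 32817 windows. At 167 co-occupied EBF1 summits with CCCNNGGG in the window, the median distance of the nearest match was 13.5 bp from the EBF1 summit and 80.5 bp from the Brg1 summit. These windows were chosen for holding the EBF1 summit, while the Brg1 summit could lie outside the letters searched. The difference is therefore set in part by the choice, and it covers promoters only. A match is a description of the letters and no evidence of binding.

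Of the 6155 EBF1 peaks, 4430 overlapped a Brg1 peak (72.0%, 70.8-73.1%) and 1725 did not. Of the 24493 Brg1 peaks, 4405 overlapped an EBF1 peak (18.0%, 17.5-18.5%) and 20088 did not. The overlaps were seldom marginal. Only 27 of the 4430 co-occupied EBF1 peaks shared under 50 bp with Brg1, and 20 of the 1725 others lay under 50 bp from a Brg1 peak. The shares depend on how deep the lists reach. With both lists held to a −log10 q of at least 10, 42.4% of EBF1 peaks had Brg1 and 35.4% of Brg1 peaks had EBF1. At 20 or more, where 3597 EBF1 and 1725 Brg1 peaks were left, the shares were 28.0% and 56.9%. With the Brg1 list held to the length of the EBF1 list, they were 39.1% and 38.002%.

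The summits of co-occupied peaks lay close together, which the overlap rule in part sets in advance. The median distance from an EBF1 summit to the nearest Brg1 summit was 40 bp (quartiles 17 and 94 bp; 26 bp with both lists at a −log10 q of at least 20), and 76.8% (75.5-78.0%) lay within 100 bp. For EBF1 peaks without Brg1 the median was 17841 bp (4667 and 50116 bp), and 7.83% had a Brg1 summit within 1 kb. The gap between the classes follows largely from the rule, which sorts peaks by their overlap with Brg1. The EBF1 summit was inside the Brg1 peak at 95.7% of co-occupied sites. The Brg1 peaks with EBF1 were the wider ones, with a median of 506 bp against 385 bp for the co-occupied EBF1 peaks. A wider peak leaves more room for a summit to fall inside it. By genome coordinate, 49.6% (48.1-51.0%) of the Brg1 summits lay on the higher side. Sites were not oriented by gene strand or motif, so this share cannot show an offset relative to either. A count around all EBF1 summits does not use the rule. Per kb and per 1000 EBF1 summits, there were 5020 Brg1 summits within 25 bp, 1358 between 50 and 100 bp and 62.0 between 5 and 10 kb.

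**Figure D1:**
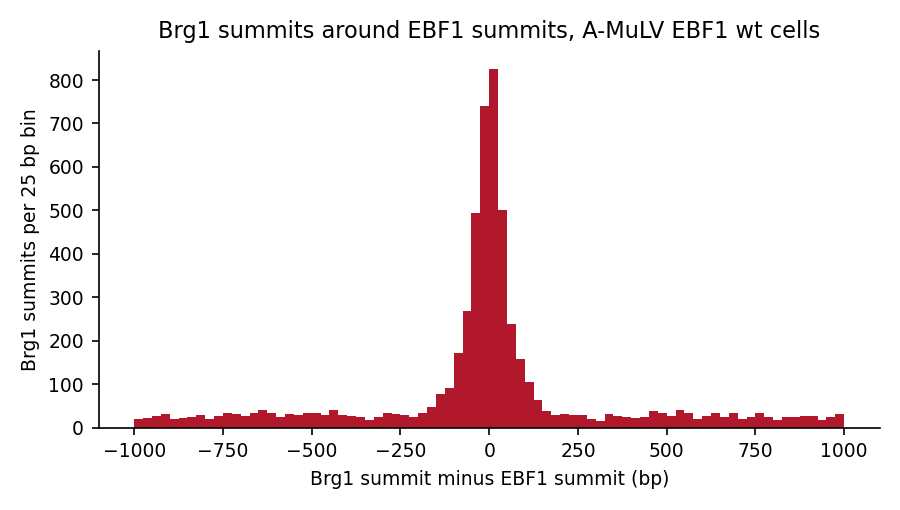
Brg1 summits around all 6155 EBF1 summits, counted in bins of 25 bp (x axis: Brg1 position minus EBF1 position in bp, y axis: number of Brg1 summits). The counts peak at the EBF1 summit on both sides alike and are low and flat beyond 200 bp.

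The summits lay closer at stronger and at distal sites. From the weakest to the strongest quartile group of EBF1 peaks by fold, the median distance at co-occupied sites was 59, 48, 40 and 27 bp. The nearest Brg1 peaks were wider at the strongest quartile group, with a median of 635.5 bp against 443 bp at the weakest. Within 1 kb of a transcription start the median was 73 bp (28 and 220 bp, n = 792), and farther away it was 35.5 bp (15 and 78 bp, n = 3518). At Plcg2 the strongest EBF1 summit (25.9), 1104 bp from the nearest start, lay 736 bp from the summit of the Brg1 peak that overlaps it.

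The share of co-occupied peaks was higher among stronger peaks of each protein. The share of EBF1 peaks with Brg1 was 53.7% (51.2-56.2%), 65.1% (62.6-67.4%), 77.8% (75.6-79.9%) and 91.7% (90.2-93.0%) from the lowest to the highest quartile group of EBF1 fold. Brg1 was present at all 100 of the highest EBF1 peaks, at 488 of the highest 500 and at 944 of the highest 1000. The share of Brg1 peaks with EBF1 was 7.24% (6.60-7.91%), 10.3% (9.52-11.1%), 17.3% (16.3-18.2%) and 37.3% (36.1-38.5%) over the quartile groups of Brg1 fold. EBF1 was present at 98 of the 100 highest Brg1 peaks, at 433 of the highest 500 and at 769 of the highest 1000. The Brg1 peaks with EBF1, a minority of the list, made up most of its highest 1000 but not of its highest quartile group.

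Weaker peaks had less in common in both directions, yet the scale of the difference varied with position. Among Brg1 peaks over 1 kb from a start, the share with EBF1 ran from 8.47% in the lowest quartile group to 53.7% in the highest. Among Brg1 peaks within 1 kb of a start, it ran from 4.34% to 15.3%. Over the 4494 overlapping pairs of peaks, EBF1 and Brg1 fold had a Spearman rho of 0.40, given as a description, over pairs that share the same DNA and the same 2 libraries.

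**Figure D2:**
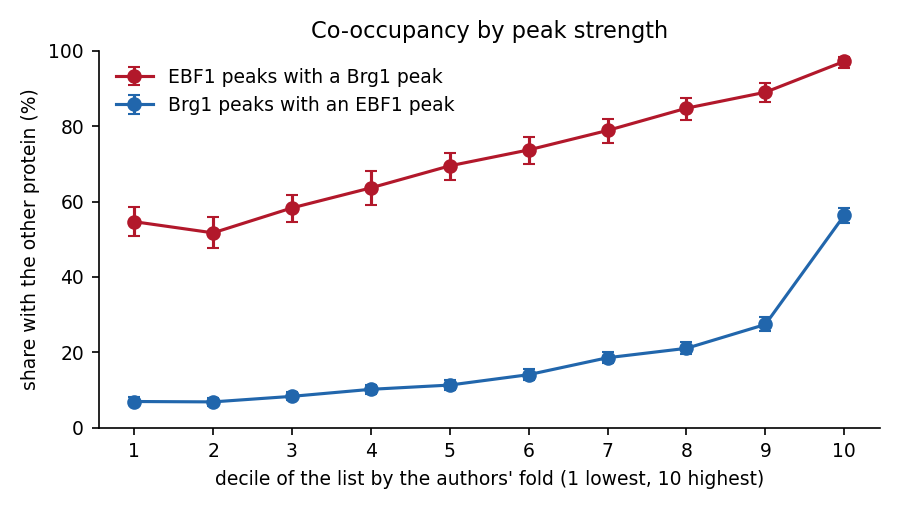
Share of EBF1 peaks with a Brg1 peak and of Brg1 peaks with an EBF1 peak (y axis, %) by decile of each list in order of the authors' fold (x axis); bars are exact 95% intervals. The EBF1 line ends at 97.2% in the highest decile, and the Brg1 line steps up between the last pair of deciles, 27.4% and 56.4%.

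Brg1 peaks with EBF1 were distal, and Brg1 peaks without EBF1 were often at promoters. A summit lay within 1 kb of a transcription start for 18.8% (17.7-20.0%) of Brg1 peaks with EBF1 and for 41.6% (40.9-42.3%) of those without. EBF1 peaks stood the other way round, with 18.4% (17.2-19.6%) near a start among those with Brg1 and 7.25% (6.05-8.60%) among those without. An EBF1 peak within 1 kb of a start carried Brg1 in 86.7% (84.4-88.9%) of cases, and one over 10 kb away in 69.2% (67.6-70.7%). A Brg1 peak within 1 kb carried EBF1 in 9.003% (8.42-9.61%) and one over 10 kb away in 24.3% (23.5-25.2%). Starts on chromosome 18 were not used here. Summits fell inside a protein-coding gene about equally in the 4 classes, at 55.7% for EBF1 with Brg1, 57.6% for EBF1 without Brg1, 56.1% for Brg1 with EBF1 and 59.8% for Brg1 without EBF1. Exons and introns were not distinguished, since the gene table gives only gene ends.

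**Figure D3:**
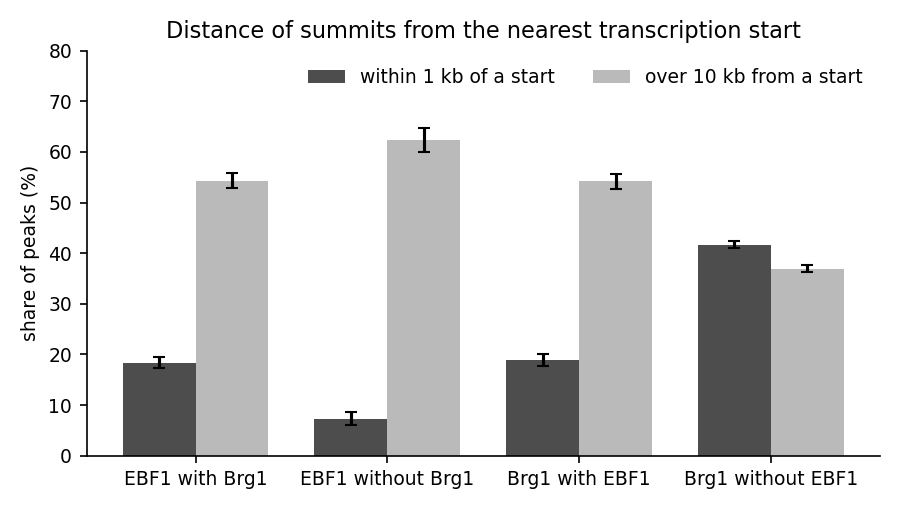
Share of peaks (y axis, %) with a summit within 1 kb of a transcription start or over 10 kb from any, in the 4 classes of peaks, with exact 95% intervals. Brg1 peaks without EBF1 are the 1 class with more peaks near a start (41.6%) than far from one (36.9%).

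The highest co-occupied EBF1 peaks lay away from promoters. The highest of all was 99934 bp from Mib1, which encodes a ubiquitin ligase acting on Notch ligands, at chr18:10918210-10918866, with an EBF1 fold of 89.6 and a Brg1 fold of 63.4. The next lay inside Srd5a2, a steroid reductase gene (chr17:74032852-74033762), with 86.5 for EBF1 and 48.6 for Brg1. A peak 4089 bp from Pet117, a cytochrome oxidase assembly gene, had 85.4 for EBF1 and 40.1 for Brg1. The others of the highest 10 were nearest Actb, Cux1, Megf6, Myl10, Sh3gl3, Slc25a26 and Spata48, with EBF1 folds from 63.3 to 75.5. All 10 had a Brg1 summit within 125 bp, and none had its summit under 4089 bp from a start, of those off chromosome 18.

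The highest Brg1 peaks with EBF1 were largely the same sites. The peak inside Slc25a26, which encodes a mitochondrial S-adenosylmethionine carrier, had the highest Brg1 fold, 66.5, at chr6:94518029-94518904. Of the 10 highest, 7 were sites named above, and the other 3 lay inside Calcoco2 (Brg1 51.8, EBF1 47.4), Cdk17 (45.3 and 59.3) and Exoc6 (43.5 and 34.8). The highest Brg1 peaks without EBF1 were weaker, with folds from 18.9 to 24.6. Those described here were nearest Stoml1 (24.6; chr9:58270975-58272003), Gm46294 (21.9), Lyn (21.2), Gpat3 (20.0), Adam6b (20.0), Syndig1l (19.8), Olfr164 (19.3), Dact3 (18.9) and Ttll5 (18.9). The one nearest Lyn, a kinase of the B-cell receptor pathway, lay 28878 bp from the gene, and the one in Dact3 lay 114 bp from a start.

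EBF1 peaks without Brg1 reached lower folds. The highest were nearest Rpl14 (30.8; chr9:120586479-120586982), Nans (29.0), Poln (29.0), D6Ertd527e (25.4), Nab2 (25.1), Tex29 (24.3), Hlx (23.8), Srfbp1 (23.5), Il27ra (23.3) and Eln (21.7). Their nearest Brg1 summits lay between 3193 bp (Nab2) and 290170 bp (Tex29) away. As a class, EBF1 peaks with Brg1 had a median fold of 10.2 and a median width of 385 bp, against 7.58 and 320 bp for those without. Brg1 peaks with EBF1 had medians of 7.18 and 506 bp, against 5.23 and 358 bp for those without.

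Co-occupied EBF1 sites lay near most genes of the pre-B-cell receptor and its signalling chain. Within 10 kb of the gene, 9 of 12 members had one, where 15.2% of all 21887 protein-coding genes did. EBF1 peaks without Brg1 lay near 2 of the 12 members and 6.99% of all genes, and Brg1 peaks without EBF1 near all 12 and 49.3% of all genes. These genes are long, with a median length of 42.8 kb against 17.2 kb for all genes. What part length had in the counts was not tested.

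The surrogate light chain genes held strong joint sites. Igll1 and Vpreb1 lie side by side and share all 3 of their sites, with EBF1 folds of 36.5, 12.0 and 12.0. The Brg1 folds there were 36.1, 9.34 and 10.8, and the summits were 36, 96 and 12 bp apart. Vpreb2, farther along chromosome 16, had 3 sites of EBF1 fold 32.4, 9.69 and 7.32, with Brg1 folds of 14.4, 20.6 and 3.85 at 37, 11 and 55 bp. Vpreb1 and Vpreb2 are near-identical copies, so reads could have been placed at either.

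The signalling chains and kinases varied more. Cd79b, the partner of Cd79a, had 3 joint sites, with EBF1 folds of 18.4, 12.7 and 9.28 and Brg1 summits 18, 8 and 43 bp away. Cd79a had its promoter site and another 2 EBF1 peaks without Brg1, of fold 7.58 and 6.27. Plcg2, the phospholipase downstream of the receptor, had 4 joint EBF1 peaks, of fold 25.9, 18.4, 15.2 and 7.05. Lyn had 2 joint sites (12.0 and 11.2), and Btk, another kinase, had 1 (9.41) with its Brg1 summit 10 bp away. Pik3ap1, an adaptor for PI 3-kinase, had a joint site (12.5) whose summits lay 2 bp apart, and an EBF1 peak without Brg1 (10.3). The adaptor Blnk and the kinases Syk and Blk had no EBF1 peak within 10 kb, and 10, 4 and 1 Brg1 peaks.

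Transcription factor genes of the B lineage also had many joint sites. These lay within 10 kb of 14 of 16 members, EBF1 peaks without Brg1 near 3 and Brg1 peaks without EBF1 near all 16. Over all protein-coding genes the shares were 15.2%, 6.99% and 49.3%. This list is the longest by gene length too, with a median of 84.9 kb. Pax5, the B-lineage commitment factor, had an EBF1 peak of fold 31.4 with a Brg1 summit 25 bp away (chr4:44705955-44706363) and another of 18.0 under the same Brg1 peak. Ikzf3, which encodes Aiolos, had 26.4, and Pou2af1, a coactivator of Oct factors, had 21.2, with Brg1 summits 23 and 19 bp away. Ebf1 itself had 4 joint sites (14.8, 9.63, 7.58 and 5.64) with Brg1 summits 28, 5, 124 and 103 bp away. Bcl11a had only an EBF1 peak without Brg1 (5.30). Irf8 had no EBF1 peak in the window, though 1 Brg1 peak there overlapped an EBF1 peak lying outside it.

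B-cell surface genes had joint sites near 10 of 16 members (inside the gene itself at 5), EBF1 without Brg1 near 0 and Brg1 without EBF1 near 15. Over all genes these shares were 15.2% (9.49% inside the gene), 6.99% and 49.3%. High EBF1 folds at joint sites were at Bank1 (24.3), a scaffold of B-cell receptor signalling, Cd22 (17.5) and the invariant chain gene Cd74 (14.4). Ms4a1, which encodes CD20, had no peak of either protein within 10 kb. Of the recombination genes, 2 of 9 had joint sites within 10 kb, beside 15.2% of all genes. These were Xrcc6 (10.6) and Xrcc4 (9.14), which act in DNA end joining. Rag1 had no peak, Rag2 had an EBF1 peak without Brg1 (7.84), and Dntt had 5 Brg1 peaks without EBF1. Over the 4 B-lineage lists, 61 of 69 EBF1 peaks near a member carried Brg1 (88.4%, 78.4-94.9%), beside 72.0% of all EBF1 peaks and 86.7% of those within 1 kb of a start.

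**Figure D4:**
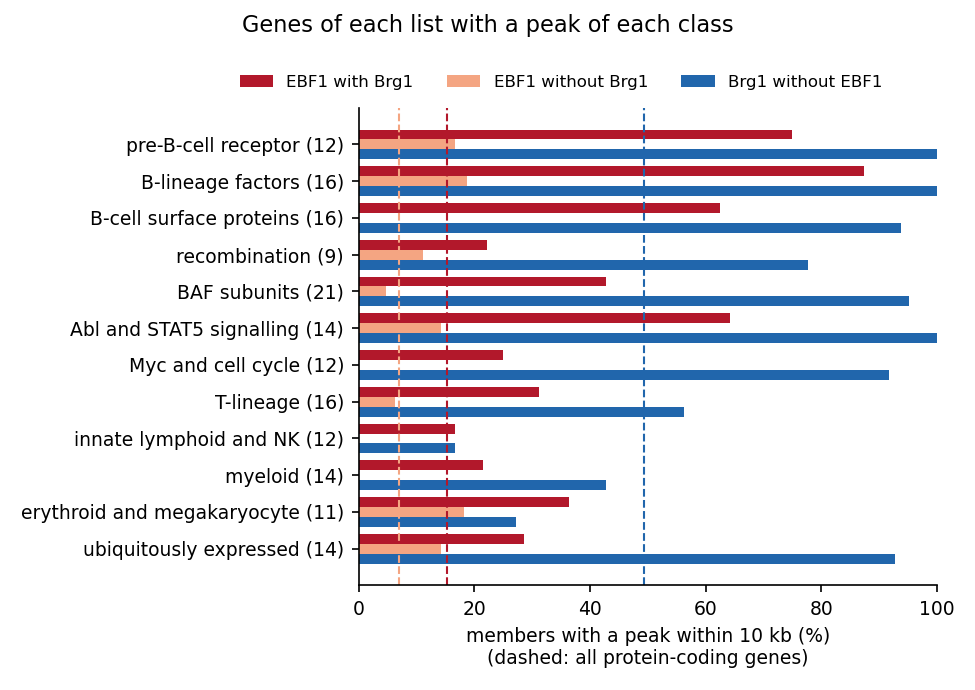
Share of the members of each gene list (number of genes in brackets) with a peak of the class EBF1 with Brg1, EBF1 without Brg1 or Brg1 without EBF1 within 10 kb (x axis, %), and the same over all 21887 protein-coding genes as dashed lines (15.2%, 6.99% and 49.3%). Joint sites lie near 9 of 12 pre-B-cell receptor genes and 14 of 16 B-lineage factors.

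Genes of other blood lineages had joint sites near them less often than B-lineage genes in these lists, and more often than the 15.2% of all genes. Joint sites were near 14 of 53 T-lineage, innate lymphoid and NK, myeloid, and erythroid and megakaryocyte genes, against 35 of 53 B-lineage genes, a difference that was not tested. The median gene length was 24.4 kb for T-lineage, 21.4 kb for innate lymphoid and NK, 7.68 kb for myeloid and 4.68 kb for erythroid and megakaryocyte genes, and 24.6 kb for the B-lineage genes. T-lineage genes had 5 of 16, led by Tcf7 (16.0), a factor of early T cells, Notch1 (10.2), Lat (9.85) and Zap70 (8.36). Innate lymphoid and NK genes had 2 of 12, Id2 (8.36), an E-protein inhibitor, and Il2rb (7.84). Myeloid genes had 3 of 14, with Itgam (25.3), which encodes CD11b, far above Csf3r (9.41) and Spi1 (8.62). Erythroid and megakaryocyte genes had 4 of 11, with the erythroid factor Klf1 (23.8) and Gfi1b (14.9) ahead of Itga2b (11.8) and Gp9 (10.1). Of the 26 EBF1 peaks near these genes, 23 carried Brg1 (88.5%, 69.8-97.6%), an interval that also holds the 72.0% of all EBF1 peaks. At a −log10 q of at least 10, joint sites were near 1 innate lymphoid and NK gene and 2 erythroid and megakaryocyte genes, beside 2074 of all 21887 genes.

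Among the defining genes of the labelled pro-B stage, 7 of 10 had a joint site within 10 kb, and Rag1, Rag2 and Dntt had none. The same held for 1 of 6 T-lineage, 2 of 6 myeloid and 1 of 4 erythroid defining genes, beside 15.2% of all genes. RNA was not measured, and peaks near a gene are not its expression.

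Other gene groups of these cells were mixed, beside the 15.2% of all genes with a joint site within 10 kb. Abl and STAT5 signalling genes, which act downstream of the transforming kinase, had joint sites near 9 of 14, and near 5 at a −log10 q of at least 10. The highest were at the kinase gene Pim1 (19.3), the survival gene Bcl2l1 (18.4), the STAT5 target Cish (15.4) and Stat5b (13.7). Genes of Myc and the cell cycle had 3 of 12, at the cyclin gene Ccnd3 (14.5), Cdk6 (11.5) and E2f2 (9.67), and Myc had 5 Brg1 peaks and no EBF1 peak. BAF subunit genes had 9 of 21, led by Arid1a (27.4), Smarcd1 (12.5), Smarca4 (11.7) and Arid1b (11.5). Smarca4, the gene of Brg1, had its joint site at chr9:21625316-21625863, with the Brg1 summit 73 bp away and 12 further Brg1 peaks without EBF1. Ubiquitously expressed genes had 4 of 14, led by Rpl13a (19.3), and Brg1 without EBF1 near 13, beside 49.3% of all genes for the latter. These counts rest on the 10 kb window: over all genes, 9.49% had a joint site inside the gene itself and 29.4% within 50 kb. With both lists at a −log10 q of at least 10, 2074 of all 21887 genes had a joint site within 10 kb, against 3328 here.

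Joint sites more often had a Brg1 peak in cells of other origin too. In fetal liver cells with EBF1 wt, Brg1 was called at 79.0% (77.8-80.2%) of the EBF1 peaks with Brg1 and at 35.9% (33.7-38.3%) of those without. With the empty vector, in cells that lack EBF1, it was called at 21.9% (20.7-23.2%) and 4.23% (3.33-5.29%). The empty-vector list was shorter, with 17687 peaks against 29354 with EBF1 wt. What part list length had in the lower shares was not tested. The 2 classes differ in EBF1 strength, so the shares were also taken within quartile groups of EBF1 fold. There the fetal liver wt share was 75.7% at sites with Brg1 and 30.6% at those without in the lowest quartile group, and 82.6% and 43.8% in the highest. Over 1 kb from a start, the shares were 75.6% and 33.5% with wt and 16.6% and 3.23% with the empty vector. At a −log10 q of at least 20, the difference between sites with and without Brg1 was 25.9 percentage points with wt and 6.08 with the empty vector. Over the full lists the differences were 43.0 and 17.7. At 20 or more the fetal liver wt list kept 17976 peaks and the empty-vector list 5180.

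The altered EBF1 versions gave the same order in fetal liver. Brg1 was called at 64.0% of sites with and 22.9% of sites without A-MuLV Brg1 with dC, at 71.1% and 28.7% with dPLD, and at 75.5% and 30.6% with F-GATA3. In A-MuLV cells with EBF1 dC, Brg1 was called at 60.5% (59.0-61.9%) of the EBF1 wt peaks with Brg1 and at 12.5% (11.0-14.2%) of those without. EBF1 dC was called at 81.9% (80.8-83.1%) and 63.1% (60.8-65.4%) of them. At a −log10 q of at least 20 these differences were 27.8 and 12.0 percentage points, against 48.0 and 18.8. Within the highest quartile group of EBF1 fold, EBF1 dC was called about equally, at 91.4% (89.8-92.8%) of sites with Brg1 and 89.8% (83.3-94.5%) of those without.

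**Figure D5:**
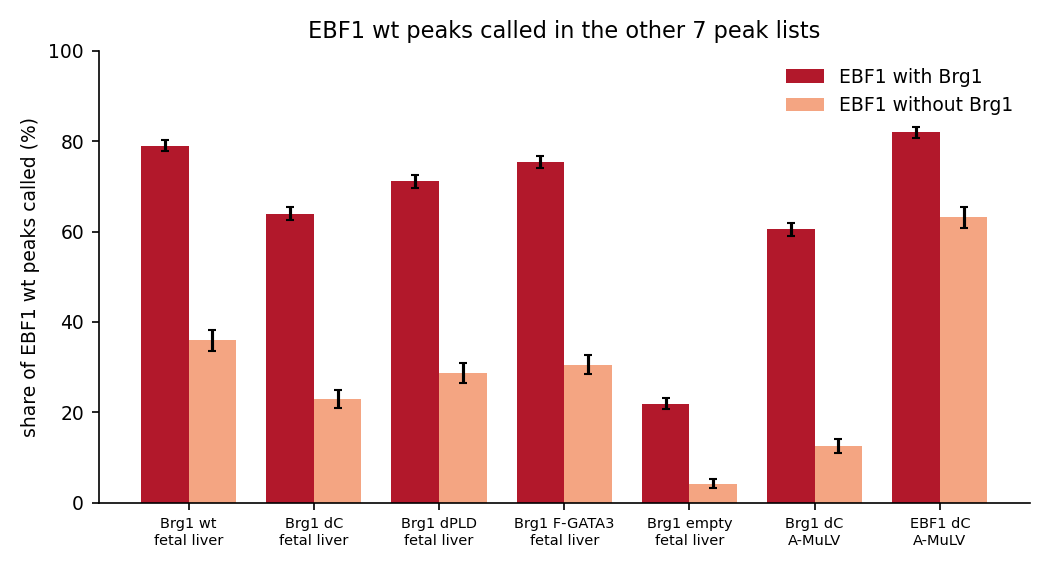
Share of EBF1 wt peaks called in each of the other 7 peak lists (y axis, %), for EBF1 peaks with and without A-MuLV Brg1, with exact 95% intervals. In all 7 lists the share is higher at sites with Brg1, from 21.9% against 4.23% (empty vector) to 81.9% against 63.1% (EBF1 dC).

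From the Brg1 side, peaks with EBF1 had the lower share in every other Brg1 list taken whole, though by little in some. Brg1 peaks with EBF1 were called in empty-vector fetal liver cells at 22.7% (21.4-23.9%), and those without EBF1 at 38.6% (37.9-39.2%). In fetal liver cells with EBF1 wt the shares were 79.0% and 82.4%, and in A-MuLV dC cells 61.2% and 62.7%. In fetal liver they were 64.1% and 82.9% with dC, 71.1% and 83.2% with dPLD, and 75.6% and 77.8% with F-GATA3. Peaks in the fetal liver wt list were wider than in the A-MuLV dC list (median 1103 bp against 348 bp), so the levels of these lists are not compared. Among the highest quartile group of Brg1 peaks by fold, Brg1 was called in A-MuLV dC cells at 73.2% of those with EBF1 and 92.5% (91.6-93.3%) of those without. In the same group the empty-vector shares were 27.1% (25.3-29.0%) and 57.2% (55.6-58.7%).

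Position changed the order in some lists. Over 1 kb from a start, Brg1 peaks with EBF1 had the higher share in A-MuLV dC cells (55.4% against 51.2%), with wt in fetal liver (75.3% against 72.9%) and with F-GATA3 (71.7% against 67.3%). There they had the lower share with dC (57.6% against 73.1%) and dPLD (66.0% against 74.2%) in fetal liver and with the empty vector (17.1% against 32.2%). Within 1 kb of a start the shares were 86.4% with EBF1 and 78.7% without in A-MuLV dC cells, and 46.6% and 47.5% with the empty vector.

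The highest peaks were set beside the share of their class in the highest quartile group of fold. None of the 10 highest co-occupied EBF1 peaks was called for Brg1 with the empty vector, beside 20.2% of that group. With EBF1 wt in fetal liver 8 were called, beside 82.6%. The Srd5a2 and Megf6 sites had no fetal liver Brg1 peak in any of the 5 lists, and the Megf6 site also had none in A-MuLV dC cells, where EBF1 dC was called at 15.1. Of the 10 highest Brg1 peaks without EBF1, 8 were called with the empty vector, beside 57.2% of the highest quartile group of that class. All 10 were called in each of the other 5 Brg1 lists, beside 92.5% to 96.4% of that group. At the Igll1 promoter site, Brg1 was called in A-MuLV dC cells and in fetal liver cells with EBF1 wt, dC, dPLD and F-GATA3. With the empty vector no Brg1 peak was called there, but one of fold 10.7 was at the next joint site of Igll1 (chr16:16865570-16865908). Of the 10 highest EBF1 peaks without A-MuLV Brg1, 6 had a Brg1 peak in fetal liver with EBF1 wt and 6 in A-MuLV dC cells. The shares were 43.8% and 18.8% in the highest quartile group of this class, and 35.9% and 12.5% over the whole class.

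In A-MuLV dC cells the pair overlapped less from the EBF1 side. Of 11147 EBF1 dC peaks, 46.1% (45.2-47.0%) had a Brg1 peak of the same cells, beside 72.0% of the EBF1 wt peaks in wt cells. The dC list was longer, and held to its 6155 highest peaks the dC share was 59.4% (58.2-60.6%). At a −log10 q of at least 20 the share was 10.6% in dC cells and 28.0% in wt cells. The lists then held 5742 EBF1 and 1088 Brg1 peaks in dC cells, and 3597 and 1725 in wt cells. What part these list lengths had was not tested. The median summit distance was 62 bp in dC cells and 40 bp in wt cells. From the Brg1 side, 21.9% of 24420 Brg1 dC peaks had EBF1, beside 18.0% in wt cells.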

How the data were processed

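ChIP-seq peak lists of 9 mouse libraries were used, and the 5 inputs, reads and signal tracks were not analysed here. Per the submitters' processing notes, MACS2 2.1.2, Bowtie2 2.3.3.1, deepTools 3.3.1, SAMtools 1.9 and GRCm38 were used. The lists give, as deposited by the authors, a fold (ratio) over background, −log10 p and −log10 q values and a score of 10 times the −log10 q, per peak. Not given in the sources used here are each list's threshold and input.

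Autosomal, X and Y peaks were compared by overlap of at least 1 bp with numpy 2.4.6 and pandas 2.3.3, checked on simulated intervals. Exact intervals came from scipy 1.17.1. Nothing was tested, because each group had 1 library. Genes, starts and promoters came from RefSeq for GRCm38.p6 (21887 protein-coding genes, 32817 windows, none on chromosome 18). All 167 list genes were matched by symbol.

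The text names the 10 highest peaks by fold in each class, up to 4 members per list for the joint sites, every pre-B-cell receptor gene, Ebf1, Pax5 and Smarca4. A few items the rule names are not reported here. Genes named as lacking a peak, Igk, Igh and the last 2 promoters were chosen after their values were seen. The members and lists were chosen with earlier results of these data known. Alternatives were other overlap rules, −log10 q minima, equal list lengths, scaffolds and gene windows.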

Additional observations from a re-analysis of the deposited data

How the results depend on the processing

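No paired analysis was possible because each group had 1 library. Including scaffolds left the shares with Brg1 and with EBF1 at 72.0% and 17.9%. The median summit distance was 26 to 39 bp under the 4 alternatives tried, within the quartiles of the reported 40 bp. The differences between fold quartile groups, and those between sites with and without Brg1 in the other lists, kept their sign under the alternatives tried for them. Other orders turned: EBF1 peaks with Brg1 were the minority at a −log10 q of 10 or more and with the equal-length list, and Brg1 peaks with EBF1 the majority at 20 or more. Genes near EBF1 peaks without Brg1 outnumbered those near EBF1 peaks with Brg1 at 10 and with the equal-length list. Values outside the counting interval of those reported, or counts past 1.5 times, follow. The order is share of EBF1 peaks with Brg1, share of Brg1 peaks with EBF1, EBF1 summits within 100 bp of a Brg1 summit, and highest minus lowest quartile group for EBF1 and for Brg1 fold. As reported they were 72.0%, 18.0%, 55.3%, 37.9 points and 30.1 points. An overlap of 50% of the shorter peak gave 70.3% and 17.4% for the first pair. Summits no more than 200 bp apart gave 63.1% and 15.9%, and 41.6 and 27.4 points. Summits no more than 1000 bp apart gave 73.8% and 22.4%. A −log10 q of at least 10 gave 42.4%, 35.4%, 33.8%, 53.3 and 42.4 points. At 20 or more the values were 28.0%, 56.9%, 24.7%, 42.7 and 52.1 points. A Brg1 list of the EBF1 list's length gave 39.1%, 38.002%, 31.5%, 52.5 and 43.4 points.

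For genes near EBF1 peaks with Brg1, EBF1 peaks without Brg1 and Brg1 peaks without EBF1 (3328, 1529 and 10787), a −log10 q of at least 10 gave 2074, 2943 and 5094, and the equal-length list 1908, 3112 and 4360. Bodies extended by 50 kb gave 6434 and 3489 for the first pair, and unextended bodies 2077 and 944. Over the 12 gene lists, the count for EBF1 with Brg1 was within 1.5 times in 12 lists with summits no more than 200 bp apart, in 9 at a −log10 q of at least 10 (fewer in 3) and in 8 with the equal-length list (fewer in 4). The count for EBF1 without Brg1 was over 1.5 times higher in 10 and 11 lists under the last pair.

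For sites with minus without Brg1, in points, fetal liver wt, 43.0 as reported, gave 32.6 (200 bp rule), 31.8 (−log10 q of 10) and 25.9 (20). The empty vector, 17.7 as reported, gave 15.7 (50% overlap), 7.31 (200 bp rule) and 6.08 (20). A-MuLV dC Brg1, 48.0 as reported, gave 44.9, 33.3, 35.1 and 27.8 under the 50%, 200 bp, 10 and 20 rules, and EBF1 dC, 18.8 as reported, gave 11.4, 15.4 and 12.0 under the last 3. The dC share, 46.1% as reported, was 43.9%, 36.7%, 21.1% and 10.6% under the same 4 rules. The depth of the libraries is unknown. Of the Brg1 peaks, 7177 reach a −log10 q of 10 and 1725 reach 20. What part list depth and crosslinking had was not tested.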

Other observations

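The immunoglobulin loci, chosen after their values were seen, differed in how many of their Brg1 peaks had EBF1. Over all peaks, 72.0% of EBF1 peaks had Brg1 and 18.0% of Brg1 peaks had EBF1. In Igk, the kappa light chain locus, 53 of 62 EBF1 peaks had Brg1 (85.5%, 74.2-93.1%), and 51 of 195 Brg1 peaks had EBF1 (26.2%, 20.1-32.9%). In Igh, the heavy chain locus, 12 of 13 EBF1 peaks had Brg1 (92.3%, 64.0-99.8%), and 12 of 172 Brg1 peaks had EBF1 (6.98%, 3.66-11.9%). Variable segments in both loci are similar copies, so reads could have been placed at either of a pair.

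Chromosome X had the lowest share of EBF1 peaks with Brg1, 25 of 45 (55.6%, 40.0-70.4%), and chromosome 7 the highest, 349 of 442 (79.0%, 74.9-82.7%). Most joint Brg1 peaks held a single EBF1 peak, and 76 held 2, 5 held 3 and 1 held 4. Of the co-occupied EBF1 peaks, 64 overlapped 2 Brg1 peaks.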
